A study of Mus musculus with 36 samples.

Results

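The interferon response genes examined here are 35 mouse genes chosen by name, and not by a threshold on measured values, from 54347 genes in the count table. They comprise 12 regulators (4 interferon receptor chains and 8 transcription factors), 5 genes of RNA sensing and the ISG15 pathway, and 18 effectors (11 antiviral proteins, 3 guanylate-binding proteins and 4 genes of antigen presentation). Each of the 35 symbols matched 1 row of the table, and all 35 passed the filter on low counts. RNA was sequenced from 4 primary mouse cell types, each treated for 6 h with vehicle (PBS, the control), 5 mM β-hydroxybutyrate (βOHB) or 5 mM butyrate, with 3 libraries for each of the 12 groups. The adipocytes derived from stromal vascular cells of inguinal fat, which was pooled from several male C57Bl/6 mice. Macrophages were grown from bone marrow of wild-type male C57Bl/6 mice in medium conditioned by L929 cells. Myocytes were myotubes formed from hindlimb myoblasts of wild-type male C57Bl/6 mice. Hepatocytes came from livers of male C57BL/6NHsd mice perfused with collagenase. Stated strain and culture medium varied with cell type, so in controls their effects cannot be told apart from that of cell type. No group carried a transgene or received interferon or a virus. The labels do not say whether the 3 libraries of a group came from separate animals or cultures, so their spread may be technical. The p-values rest on 1 spread per gene shared by all 12 groups, and not on that of the groups compared alone.

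Type I interferons bind a receptor made of Ifnar1 and Ifnar2, and interferon gamma binds one made of Ifngr1 and Ifngr2. The type I receptor signals through a complex that contains Stat2 and Irf9 and binds the interferon-stimulated response element (ISRE) in promoters, whereas the interferon gamma receptor acts mainly on the gamma-activated site (GAS). Target genes encode proteins that detect viral RNA, block viral replication and load peptides on MHC class I, and many of them are transcribed at a low tonic level in cells that were not infected. Butyrate is a histone deacetylase inhibitor; βOHB differs from it by a hydroxyl group on the beta carbon.

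The promoter sequences of 32 of the 35 genes were found in RefSeq (GRCm38.p6, 250 bases before to 50 bases after the gene start). The core of the ISRE (GAAA, any 2 bases, then GAAA, on either strand) occurred in the promoters of 14 of these 32 genes, compared with 3.43% of 32817 mouse promoters of the same length. The core of the GAS, TTCNNNGAA, which reads the same way on both strands, occurred in 11 of the 32, compared with 8.29% of all promoters. Of the 12 regulators, 2 held the ISRE core and 5 the GAS core. Among the sensing genes, 3 of 4 with a promoter held the ISRE core and 0 of 4 the GAS core. Effectors held the ISRE core in 9 of 16 cases and the GAS core in 6 of 16. The windows below hold motifs upstream of genes whose responses are described in the following paragraphs, from the first to the last copy of the motif with some flanking bases on either side, 5′ to 3′ on the strand of the gene, with the copies in capitals. On the opposite strand the ISRE core reads TTTC, any 2 bases, then TTTC. The first lines hold the ISRE core.
Stat2 (chr10:128270256-128270305, plus strand): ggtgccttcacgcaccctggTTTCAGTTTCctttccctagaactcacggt
Irf2 (chr8:46739495-46739533, plus strand): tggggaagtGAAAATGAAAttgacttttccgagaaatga
Isg15 (chr4:156200855-156200916, minus strand): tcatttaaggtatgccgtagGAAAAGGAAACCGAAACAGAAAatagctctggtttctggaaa
Ifit1 (chr19:34640765-34640833, plus strand): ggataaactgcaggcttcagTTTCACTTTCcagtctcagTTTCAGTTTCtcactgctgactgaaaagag
Ifit3 (chr19:34583353-34583436, plus strand): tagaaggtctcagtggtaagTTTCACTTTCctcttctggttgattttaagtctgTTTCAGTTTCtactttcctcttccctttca
Rsad2 (chr12:26456543-26456592, minus strand): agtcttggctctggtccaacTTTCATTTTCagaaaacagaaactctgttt
Bst2 (chr8:71537567-71537622, minus strand): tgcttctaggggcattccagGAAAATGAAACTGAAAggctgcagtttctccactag
Gbp7 (chr3:142530263-142530312, plus strand): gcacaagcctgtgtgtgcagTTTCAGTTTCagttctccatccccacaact
B2m (chr2:122147528-122147577, plus strand): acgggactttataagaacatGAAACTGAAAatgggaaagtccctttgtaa
The last 2 lines hold the GAS core in the promoters of Irf1 and Irf8, transcription factors of the interferon gamma response.
Irf1 (chr11:53769904-53769952, plus strand): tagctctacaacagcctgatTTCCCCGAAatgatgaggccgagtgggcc
Irf8 (chr8:120736167-120736233, plus strand): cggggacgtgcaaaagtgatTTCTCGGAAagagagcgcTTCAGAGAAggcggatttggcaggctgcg
Isg15 carried 3 overlapping copies of the ISRE core with the first bases of the copies 78, 72 and 66 bases before the gene start, and Bst2 carried 2 overlapping copies. Ifit1 and Ifit3 each carried 2 separate copies. Several members lie side by side in the genome (GRCm38). Ifit2, Ifit3 and Ifit1 lie in this order on chromosome 19 between positions 34550694 and 34650009, Gbp7, Gbp3 and Gbp2 on chromosome 3 between 142530342 and 142638008, and Psmb9, Tap1 and Psmb8 on chromosome 17 between 34181987 and 34201454. The receptor genes Ifnar2, Ifnar1 and Ifngr2 lie on chromosome 16 between 91372783 and 91565623.

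Depth ranged from 18366289 to 23221473 estimated counts per library. The levels below are counts scaled by library size and TMM factor (CPM), and a gene was called changed at an adjusted p below 0.05 in edgeR's quasi-likelihood test across all 15340 genes tested. Errors of log2 fold changes (±) are standard errors (SE). Summed marker levels fitted the labelled cell types: 5 adipocyte markers reached 6527 to 9044 CPM in adipocytes and at most 105 CPM elsewhere, 8 macrophage markers 11674 to 18932 CPM in macrophages, 6 myotube markers 12287 to 27453 CPM in myocytes, and 5 hepatocyte markers 40608 to 50339 CPM in hepatocytes. Adipocyte libraries also held 5 fibroblast markers at 5444 to 9135 CPM and 8 macrophage markers at 294 to 387 CPM. The same fibroblast markers summed to 1609 to 2576 CPM in macrophage libraries and 1268 to 1892 CPM in myocyte libraries. The part of such cells in the member levels was not tested. The myocyte libraries differed in the marker levels of other cell types. Macrophage markers summed to 330, 271 and 129 CPM in the 3 control libraries but to 71.3, 53.5 and 126 CPM with βOHB and to 20.8, 84.8 and 33.3 CPM with butyrate. Hepatocyte markers summed to at most 0.321 CPM in myocyte controls, to 0.183, 0.355 and 28.3 CPM with βOHB and to 37.2, 649 and 158 CPM with butyrate. Of 7 interferon transcripts, 6 were almost undetected in all 36 libraries. Ifnb1 had at most 1 count in a library, Ifna2 at most 1, Ifng at most 2, and Ifna4, Ifnl2 and Ifnl3 had 0, which allows up to 3 counts per library. Ifnk was the exception, with counts in 10 of the 36 libraries, 108 in total and at most 26 in a library.

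In control cells, the sensing and effector genes were highest in adipocytes for 18 of the 23 (18.5% of all genes), and myocytes held the lowest level of 30 of the 35 genes (24.1% of all genes). The next cell type did not differ by the test for 4 of the 18 (Ifih1, Ddx58, Usp18 and Rsad2) and 5 of the 30 (Irf7, Isg15, Ifit1, Ifit3 and Mx1). Adipocytes exceeded macrophages for 26 members and fell below them for 7 (94.3% of members called, background 77.5% of all genes, with 39.6% higher and 37.9% lower). They exceeded myocytes for 33 and were lower for 1 (97.1%, background 78.2%, with 39% higher and 39.1% lower). Against hepatocytes, adipocytes were higher for 15 and lower for 11 (74.3%, background 81.1%, with 41.4% higher and 39.7% lower), a split that became 17 and 7 when libraries were scaled by their totals alone. Macrophages were higher than myocytes for 26 members and lower for 1 (77.1%, background 82.2%, with 39.3% higher and 42.8% lower). Compared with hepatocytes, macrophages were higher for 6 and lower for 23 (82.9%, background 82.1%, with 41.4% higher and 40.7% lower). Myocytes were higher than hepatocytes for 1 member and lower for 32 (94.3%, background 86.6%, with 44.9% higher and 41.7% lower).

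**Figure D1:**
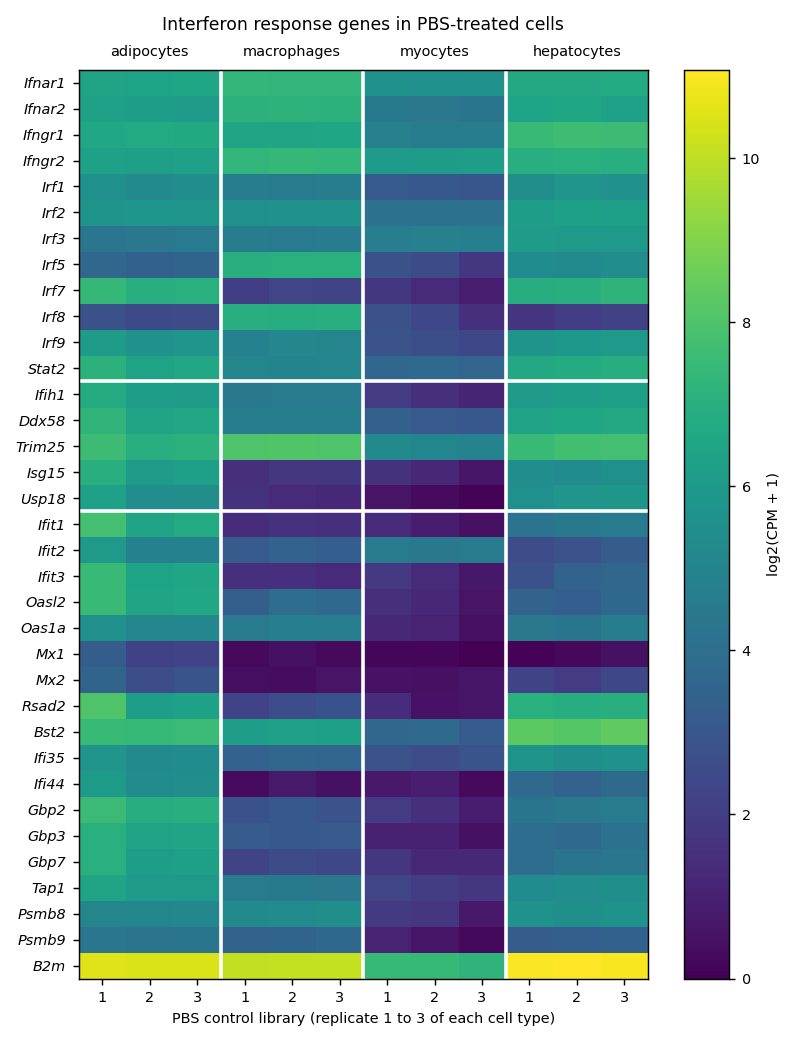
Levels of the 35 genes in the 12 PBS control libraries as log2(CPM + 1), with white lines between regulators, sensing genes and effectors and between cell types. Irf7, Isg15, Usp18 and Ifit1 are brighter in adipocytes and hepatocytes than in macrophages and myocytes, Irf5 and Irf8 are brightest in macrophages, and B2m is the brightest row in every cell type.

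The receptor chains were expressed in all 4 cell types. Ifnar1 measured 161, 158 and 157 CPM in the macrophage controls, 102, 103 and 108 in hepatocytes, 88.8, 84.6 and 90.6 in adipocytes and 51.3, 48.0 and 49.2 in myocytes. All neighbours in this order differed by the test. Ifnar2 and Ifngr2 followed the same order. Ifngr1 was highest in hepatocytes, at 183, 199.7 and 193 CPM, and lowest in myocytes, at 27.0, 25.0 and 25.1 CPM.

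Irf7, the transcription factor that amplifies type I interferon production, had a level of 164, 121 and 128 CPM in adipocytes, 119.5, 121 and 146 in hepatocytes, 3.13, 3.98 and 3.80 in macrophages and 2.52, 1.50 and 0.879 in myocytes. Neither adipocytes and hepatocytes nor macrophages and myocytes differed by the test, and every library of the former pair lay far above every library of the latter. Irf5 and Irf8, factors of myeloid cells, were instead highest in macrophages, with Irf5 at 124, 129.9 and 131 CPM and Irf8 at 125, 118 and 123 CPM. Irf8 stood at 5.67, 4.61 and 5.02 CPM in adipocytes, 5.68, 4.31 and 1.89 in myocytes and 2.26, 3.07 and 3.37 in hepatocytes. Irf9 and Stat2, subunits of the complex that binds the ISRE, were highest in hepatocytes and adipocytes, which did not differ by the test for either gene. Irf3, the constitutive factor activated by RNA sensors, was the only member that was lowest in adipocytes.

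Isg15, a ubiquitin-like protein, and Usp18, the protease that removes it, were high in adipocyte controls and low in macrophage controls. Isg15 measured 127, 69.1 and 75.0 CPM in the former and 1.82, 2.42 and 2.46 CPM in the latter, and Usp18 79.3, 41.8 and 43.8 CPM and 1.95, 1.56 and 1.34 CPM. Trim25, a ubiquitin ligase of the Ddx58 pathway, ran the other way and was highest in macrophages, at 258, 267 and 262 CPM. Ifit1, which binds viral RNA ends, measured 217, 87.0 and 107 CPM in adipocytes, 17.9, 21.3 and 23.6 in hepatocytes, 1.65, 2.01 and 1.82 in macrophages and 1.51, 0.836 and 0.395 in myocytes. Ifit2 departed from this order, since myocytes held the second highest level at 22.9, 20.4 and 22.8 CPM. Mx1, which is defective in most inbred mouse strains, measured 8.61, 3.57 and 3.67 CPM in adipocytes and at most 0.414 CPM in the controls of the other cell types. On a scale per kilobase of exon and relative to the whole library (TPM), the most abundant member was B2m, the light chain of MHC class I, with 5011 TPM in adipocytes, 5500 in hepatocytes, 4113 in macrophages and 564 in myocytes. In adipocytes it was followed by Bst2 at 592 TPM, Isg15 at 359 and Ifit3 at 203.

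Butyrate changed members of the list in every cell type and in both directions. In hepatocytes 2 members rose and 18 fell (57.1% of 35, against a background of 63.5% of all genes called, 31% higher and 32.4% lower). In adipocytes 2 rose and 15 fell (48.6%, background 61%, with 30.7% higher and 30.3% lower). Macrophages had 10 higher and 7 lower members (48.6%, background 65%, with 31.9% higher and 33.2% lower). Myocytes had 4 higher and 9 lower members (37.1%, background 66.5%, with 33.1% higher and 33.4% lower). In every cell type the share of members called in these fits was below that of all genes. The median log2 fold change of the members was -0.43 in hepatocytes, -0.365 in adipocytes, -0.030 in myocytes and 0.24 in macrophages, while that of all genes lay between -0.0083 and 0. In myocytes the median of the members changed sign with the scaling, to 0.0024 with RLE factors (all genes 0.028) and 0.11 with library totals alone (all genes 0.13). Scaling by library totals alone moved the median of all genes to 0.20 in macrophages and 0.13 in myocytes and the calls to 16 higher and 6 lower in macrophages and to 7 higher and 7 lower in myocytes. In macrophages, 29 members were called when only macrophage libraries entered the fit (82.9%, against 69.2% of all genes), so that there the share of members was the higher one. In myocytes the count fell to 8 without control replicate 1 or without control replicate 2.

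Across the 4 cell types, 30 of 35 members changed in at least 1 (background 93.1% of all genes), 5 in none (Isg15, Mx1, Mx2, Psmb9 and B2m; background 6.86%), and 5 fell in all 4 (Ifnar2, Irf2, Irf5, Irf9 and Oas1a; background 12.7%). Of these 5, Irf2 kept its 4 calls in every alternative fit. The others lost a call in at least 1 of those fits, Ifnar2 in adipocytes, Irf5 and Irf9 in myocytes and Oas1a in both cell types. Irf5 (-0.47 ± 0.20) and Oas1a (-2.13 ± 0.85) overlapped between the groups in myocytes, and Irf5 also lost its call there under the replicate block, RLE scaling and limma-voom. Tap1 was called in all 4 with opposite signs, and its hepatocyte call was lost with RLE scaling (-0.38) and with library totals alone (-0.33). The response differed between cell types for 22 of 35 members (3-degree F test, background 74.5% of all genes). Called in both directions were Ifngr1, Irf8, Ddx58, Ifit2, Ifi35 and Tap1, 6 members (background 19.3%). Of the 5 members called in no cell type, Isg15, Mx1, Mx2 and Psmb9 lay above the controls in macrophages without overlap. Groups were apart there for 72.2% of all genes.

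**Figure D2:**
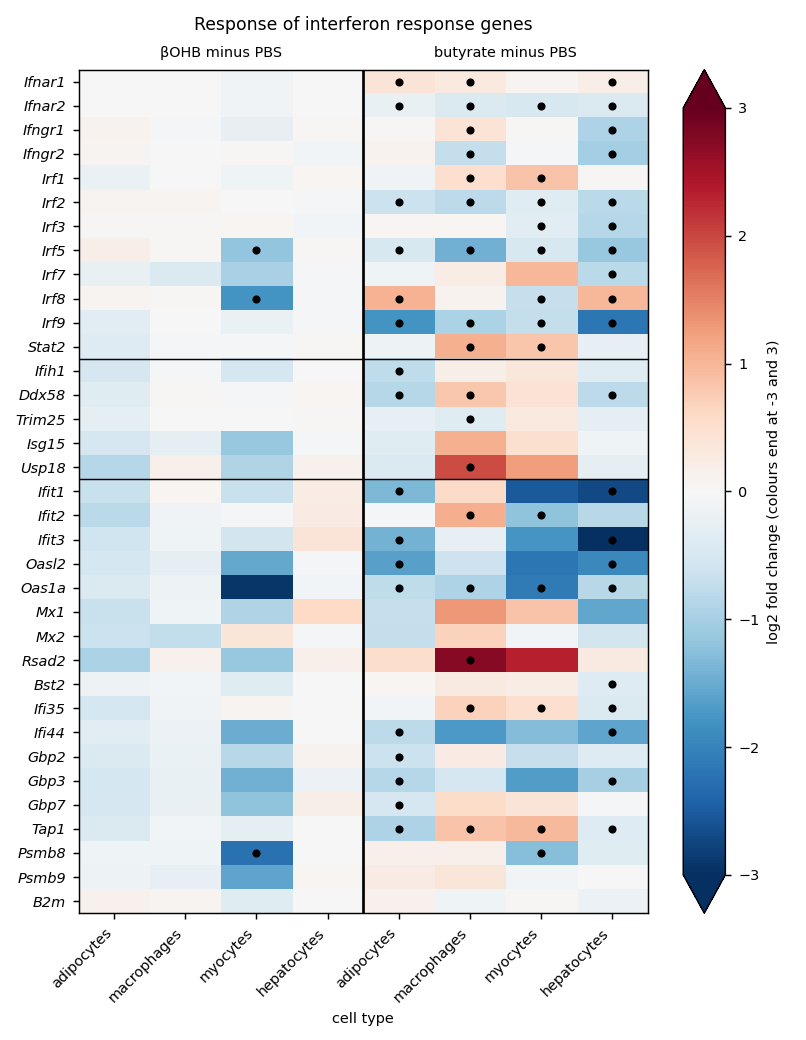
Log2 fold changes of the 35 genes for βOHB (left 4 columns) and butyrate (right 4 columns) against PBS in each cell type; black points mark calls at an adjusted p below 0.05. The βOHB columns hold 3 points, all in myocytes (Irf5, Irf8 and Psmb8), while Irf9, Irf2, Ifnar2, Irf5 and Oas1a are marked as lower in all 4 butyrate columns.

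Among receptors, the chains of the type I receptor moved in opposite directions with butyrate except in myocytes, where Ifnar1 was not called. Ifnar1 rose from 88.8, 84.6 and 90.6 CPM in adipocyte controls to 117, 116 and 111 CPM, a log2 fold change of 0.38 ± 0.06 (SE, adjusted p = 2.45e-06). The groups did not overlap. It also rose in macrophages (0.28 ± 0.06) and hepatocytes (0.20 ± 0.06), and was 0.09 ± 0.06 in myocytes. Ifnar2 fell in all 4 types. The largest estimate was that of myocytes, from 21.5, 19.9 and 18.2 to 13.8, 14.3 and 14.5 CPM (log2 fold change -0.49 ± 0.08, adjusted p = 8.52e-06). In adipocytes the fall of Ifnar2 was small, at -0.21 ± 0.07. The interferon gamma receptor chains fell in hepatocytes. Ifngr1 dropped there from 183, 199.7 and 193 to 99.3, 107 and 97.7 CPM (log2 fold change -0.92 ± 0.07, adjusted p = 1.33e-12) and Ifngr2 from 126, 129 and 126 to 62.9, 62.2 and 62.9 CPM (log2 fold change -1.02 ± 0.06, adjusted p = 4.88e-15). Neither pair of groups overlapped. In macrophages Ifngr1 rose (0.41 ± 0.07) while Ifngr2 fell, from 158, 166 and 159.6 to 98.0, 94.1 and 101 CPM (log2 fold change -0.72 ± 0.06, adjusted p = 7.75e-12).

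Irf9, the DNA-binding subunit of the ISRE complex, fell in all 4 cell types. Its level in hepatocytes went from 51.9, 59.1 and 62.3 CPM in controls to 12.2, 13.4 and 13.1 CPM (log2 fold change -2.16 ± 0.16, adjusted p = 8.81e-13), and in adipocytes from 67.1, 50.2 and 54.0 to 17.8, 15.2 and 16.8 CPM (log2 fold change -1.78 ± 0.16, adjusted p = 3.04e-11). In macrophages it went from 28.5, 34.3 and 31.6 to 18.1, 15.7 and 15.4 CPM (log2 fold change -0.94 ± 0.16, adjusted p = 5.17e-06). The groups were separate in these types. In myocytes Irf9 was low already, at 6.18, 5.32 and 4.22 CPM, and measured 2.44, 3.84 and 3.35 CPM with butyrate (log2 fold change -0.71 ± 0.23, adjusted p = 0.00881), still without overlap. Its partner Stat2 behaved differently. In macrophages Stat2 rose from 31.9, 31.1 and 32.7 to 68.6, 68.3 and 63.3 CPM (log2 fold change 1.06 ± 0.19, adjusted p = 1.2e-05) and in myocytes from 11.7, 12.8 and 11.4 to 21.2, 22.2 and 20.8 CPM (log2 fold change 0.84 ± 0.22, adjusted p = 0.00121). The groups were apart in both, whereas Stat2 was not called in adipocytes (-0.15 ± 0.18) or hepatocytes (-0.25 ± 0.18).

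Irf2, which competes with Irf1 for the same sites, fell in all 4 cell types as well. Its macrophage level went from 46.5, 48.9 and 50.7 to 30.2, 28.7 and 26.5 CPM (log2 fold change -0.78 ± 0.07, adjusted p = 1.24e-10), and the changes were -0.65 ± 0.07 in adipocytes, -0.81 ± 0.07 in hepatocytes and -0.35 ± 0.08 in myocytes. Irf1, an activator induced by interferon gamma, rose in macrophages (0.51 ± 0.10) and in myocytes, from 7.79, 7.17 and 6.72 to 11.6, 14.3 and 12.9 CPM (log2 fold change 0.84 ± 0.12, adjusted p = 3.49e-07), and its groups did not overlap in either. Irf1 was not called in adipocytes or hepatocytes. Irf3 fell in hepatocytes (-0.86 ± 0.08) and myocytes (-0.34 ± 0.08), and Irf7 was called in hepatocytes alone, where it fell from 119.5, 121 and 146 to 74.8, 72.7 and 74.6 CPM (log2 fold change -0.80 ± 0.25, adjusted p = 0.00701).

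The myeloid factors parted. Irf5 fell in macrophages, its main site of expression, from 124, 129.9 and 131 to 47.4, 47.0 and 47.6 CPM (log2 fold change -1.44 ± 0.12, adjusted p = 5.69e-12), and in hepatocytes from 40.5, 37.2 and 42.4 to 17.2, 18.6 and 18.6 CPM (log2 fold change -1.15 ± 0.13, adjusted p = 7.49e-09). The groups did not overlap in either cell type. Irf8 was not called in macrophages (0.11 ± 0.14) but rose in adipocytes from 5.67, 4.61 and 5.02 to 10.9, 10.3 and 10.4 CPM (log2 fold change 1.04 ± 0.20, adjusted p = 3.7e-05) and in hepatocytes from 2.26, 3.07 and 3.37 to 6.41, 5.30 and 5.64 CPM (log2 fold change 0.99 ± 0.26, adjusted p = 0.00152). These groups did not overlap either. The summed level of the 8 macrophage markers was 334 to 387 CPM in adipocyte controls and 294 to 320 CPM with butyrate, and 90.0 to 113 CPM in hepatocyte controls and 99.7 to 120 CPM with butyrate. In macrophages themselves butyrate lowered 5 of these 8 markers (median log2 fold change -0.64), and the part of macrophage RNA in the Irf8 values was not tested. In myocytes Irf8 was lower with butyrate, at 1.58, 2.87 and 2.90 CPM against 5.68, 4.31 and 1.89 CPM (log2 fold change -0.69 ± 0.26, adjusted p = 0.0208), and the groups overlapped. All 8 macrophage markers were lower in the same myocyte libraries (median log2 fold change -2.34), as were Irf5 and Psmb8, and the part of macrophage RNA in these changes was not tested.

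**Figure D3:**
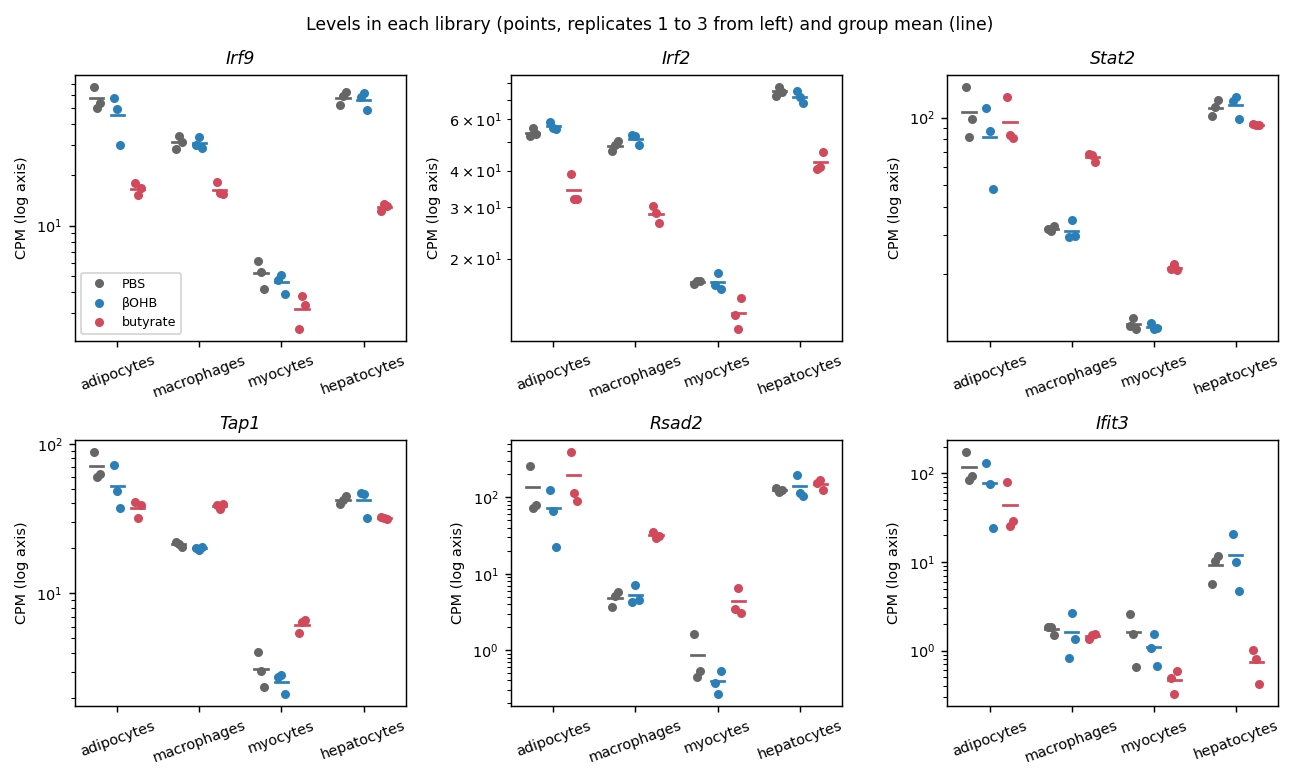
Levels (CPM, log axis) of 6 members in each of the 36 libraries, by cell type and treatment, with the mean of each group as a line. Irf9 and Irf2 are lower with butyrate in every cell type, Stat2 and Rsad2 are higher in macrophages and Stat2 in myocytes, Tap1 is lower in adipocytes and hepatocytes and higher in macrophages and myocytes, and Ifit3 is lower in adipocytes and hepatocytes.

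Of the sensing genes, Ddx58 (RIG-I, a receptor for viral RNA) moved in opposite directions between cell types. It rose in macrophages from 24.8, 24.9 and 24.5 to 45.2, 45.4 and 40.0 CPM (log2 fold change 0.82 ± 0.22, adjusted p = 0.0018). In adipocytes it fell from 151, 88.0 and 96.8 to 79.9, 49.5 and 55.3 CPM (log2 fold change -0.86 ± 0.21, adjusted p = 0.000552), and in hepatocytes the change was -0.78 ± 0.21. Neither the macrophage nor the adipocyte groups overlapped. Ifih1 (MDA5, the related receptor) was called in adipocytes only, where it fell (-0.75 ± 0.20). Usp18 rose in macrophages from 1.95, 1.56 and 1.34 to 6.16, 6.39 and 6.50 CPM (log2 fold change 1.97 ± 0.50, adjusted p = 0.000985), where Isg15 measured 1.82, 2.42 and 2.46 CPM in controls and 5.04, 4.63 and 4.31 CPM with butyrate and was not called (log2 fold change 1.06 ± 0.53, adjusted p = 0.0763).

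Of the 11 antiviral effectors, 5 fell and 0 rose in adipocytes (all genes 30.3% lower and 30.7% higher), and 7 fell and 0 rose in hepatocytes (all genes 32.4% lower and 31% higher), with median log2 fold changes of -0.72 and -0.83. Ifit3, a partner of Ifit1, went in hepatocytes from 5.70, 10.2 and 11.6 CPM to 1.01, 0.792 and 0.420 CPM (log2 fold change -3.60 ± 0.87, adjusted p = 0.000569). Ifit1 went from 17.9, 21.3 and 23.6 to 2.86, 3.22 and 3.48 CPM (log2 fold change -2.72 ± 0.56, adjusted p = 9.51e-05). Oasl2, an oligoadenylate synthetase-like protein, went from 10.5, 8.97 and 11.9 to 2.38, 3.07 and 2.70 CPM (log2 fold change -1.94 ± 0.51, adjusted p = 0.00134), and Ifi44 from 12.7, 10.3 and 13.1 to 3.28, 4.36 and 4.50 CPM (log2 fold change -1.57 ± 0.47, adjusted p = 0.00401). None of these hepatocyte groups overlapped, and limma-voom called Ifit1 but not Ifit3, Oasl2 or Ifi44 (adjusted p = 0.0619, 0.0632 and 0.0739). Some markers of other liver cells were lower in the same libraries: 4 Kupffer cell markers summed to 4.30 to 5.45 CPM in controls and 1.83 to 2.58 CPM with butyrate, and 5 endothelial markers to 80.8 to 95.7 CPM and 27.7 to 33.1 CPM. The 8 macrophage markers were not, at 90.0 to 113 CPM in controls and 99.7 to 120 CPM with butyrate. The part of other liver cells in the result was not tested. Bst2 and Ifi35 also fell in hepatocytes by small amounts (-0.40 ± 0.16 and -0.43 ± 0.15).

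In adipocytes the largest falls among effectors were those of Oasl2, from 176, 88.7 and 97.1 to 52.6, 28.4 and 36.9 CPM (log2 fold change -1.62 ± 0.32, adjusted p = 5e-05), Ifit3, from 174, 84.2 and 94.2 to 78.8, 25.5 and 28.8 CPM (log2 fold change -1.41 ± 0.41, adjusted p = 0.00373), and Ifit1, from 217, 87.0 and 107 to 103, 32.0 and 26.6 CPM (log2 fold change -1.35 ± 0.38, adjusted p = 0.00268). Oasl2 and Ifit3 did not overlap between the groups, while for Ifit1 the first butyrate library lay within the range of the controls, and its call was lost with adipocyte libraries alone (-1.34, adjusted p = 0.0573). For these genes the first library was the highest of both groups. Endothelial markers were lower in the butyrate libraries too, at 117 to 134 CPM against 176 to 202 CPM in controls, and their part was not tested.

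In macrophages 3 of the 11 antiviral effectors rose and 1 fell (all genes 31.9% higher and 33.2% lower). Rsad2 (viperin), an antiviral enzyme of lipid droplets, rose from 3.64, 5.09 and 5.83 to 35.7, 29.3 and 31.7 CPM (log2 fold change 2.73 ± 0.62, adjusted p = 0.000288). Ifit2 rose from 7.96, 10.3 and 8.99 to 21.3, 18.9 and 18.1 CPM (log2 fold change 1.10 ± 0.36, adjusted p = 0.00881). Neither gene's groups overlapped, and Ifi35 rose as well (0.70 ± 0.17). Oas1a, which makes the activator of RNase L, fell in macrophages from 23.4, 26.3 and 25.8 to 12.3, 13.6 and 13.6 CPM (log2 fold change -0.93 ± 0.25, adjusted p = 0.00146). Ifit1 measured 1.65, 2.01 and 1.82 CPM in these controls and 3.08, 2.49 and 2.62 CPM with butyrate and was not called, nor was Ifit3.

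In myocytes, Ifit2 fell from 22.9, 20.4 and 22.8 to 10.0, 9.49 and 8.97 CPM (log2 fold change -1.21 ± 0.36, adjusted p = 0.00368), without overlap. Oas1a was close to the detection limit, at 1.37, 1.06 and 0.395 CPM in controls and 0.0406, 0.404 and 0.179 CPM with butyrate (log2 fold change -2.13 ± 0.85, adjusted p = 0.028), and the groups overlapped. Ifi35 rose from 6.23, 5.19 and 6.37 to 7.51, 9.69 and 7.99 CPM (log2 fold change 0.50 ± 0.20, adjusted p = 0.0257). Rsad2 measured 1.65, 0.440 and 0.527 CPM in controls and 3.45, 6.50 and 3.08 CPM with butyrate and was not called (log2 fold change 2.34 ± 1.10, adjusted p = 0.0613). Hepatocyte markers stood at 0.0781%, 1.36% and 0.331% of their hepatocyte level in the 3 butyrate libraries of myocytes. The same shares of the hepatocyte level of Rsad2 come to 0.118, 2.05 and 0.499 CPM, and of Stat2 to 0.0726, 1.27 and 0.308 CPM. For Irf7, which measured 2.52, 1.50 and 0.879 CPM in controls and 3.05, 3.63 and 2.95 CPM with butyrate and was not called (0.99 ± 0.55), they come to 0.0578, 1.01 and 0.245 CPM. For the other members that rose in myocytes the share was largest in butyrate replicate 2, at 0.674 CPM for Irf1, 0.496 CPM for Ifi35 and 0.437 CPM for Tap1. The part of hepatocyte RNA in these values was not tested.

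The antigen presentation gene Tap1, which carries peptides into the endoplasmic reticulum, fell in adipocytes from 88.4, 60.6 and 63.4 to 41.2, 32.2 and 39.3 CPM (log2 fold change -0.92 ± 0.16, adjusted p = 1.13e-05). It rose in macrophages from 22.1, 21.5 and 20.3 to 39.1, 36.5 and 39.5 CPM (log2 fold change 0.85 ± 0.17, adjusted p = 6.15e-05) and in myocytes from 4.03, 3.03 and 2.37 to 5.40, 6.42 and 6.65 CPM (log2 fold change 0.97 ± 0.25, adjusted p = 0.00129). The groups were separate in all 3. In hepatocytes the change was small (-0.40 ± 0.17). Its neighbours Psmb8 and Psmb9, subunits of the immunoproteasome, were not called in adipocytes (0.15 ± 0.17 and 0.25 ± 0.17) or macrophages (0.16 ± 0.17 and 0.36 ± 0.18), although the Psmb9 libraries with butyrate lay above the controls in macrophages, at 14.5, 13.2 and 15.2 against 10.5, 10.9 and 12.0 CPM. Psmb8 was lower in myocytes, with 0.284, 1.45 and 0.625 CPM against 2.66, 2.42 and 0.703 CPM (log2 fold change -1.27 ± 0.43, adjusted p = 0.0101), and the groups overlapped. B2m was not called in any cell type. The guanylate-binding proteins, GTPases that attack pathogen vacuoles, were lower in adipocytes (3 of 3 called, all genes 30.3% lower). The groups did not overlap for Gbp3, with 71.6, 43.0 and 50.5 CPM against 129.5, 82.6 and 87.1 CPM (log2 fold change -0.86 ± 0.22, adjusted p = 0.00124). They overlapped for Gbp2 (-0.65 ± 0.22) and Gbp7 (-0.50 ± 0.22), which DESeq2 did not call (adjusted p = 0.0594 and 0.119). Gbp7 also lost its call with RLE scaling, library totals alone and the filter at 20 counts, and both did with adipocyte libraries alone. In hepatocytes Gbp3 alone of the 3 was called (-0.99 ± 0.30). The call was lost when its counts were summed with those of the related Gbp7, which was not called there and whose groups overlapped. Such a sum cannot tell shared reads from a different response of Gbp7.

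Members with the ISRE core in their promoter were called lower in each cell type, and higher in macrophages and myocytes only. Members without it were called in both directions in each cell type. In adipocytes 9 of 14 members with the core fell and 0 rose, and 6 of 18 without it fell and 2 rose (all genes 30.3% lower and 30.7% higher). In hepatocytes 7 of 14 with the core fell and 0 rose, against 11 and 2 of 18 without it (all genes 32.4% lower and 31% higher). In macrophages 2 of 14 with the core fell and 3 rose, against 5 and 6 of 18 without it (all genes 33.2% lower and 31.9% higher). In myocytes 2 of 14 with the core fell and 1 rose, against 7 and 3 of 18 without it (all genes 33.4% lower and 33.1% higher). Of the 6 members with more than 1 copy of the ISRE core, Oas1a was called lower in all 4 cell types and Ifit1, Ifit3 and Gbp3 in adipocytes and hepatocytes, Bst2 was called in hepatocytes only, as lower, and Isg15, with 3 copies, was called in no cell type. Rsad2, with a single copy, was higher in macrophages.

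Of 70 called results for single members (67 with butyrate and 3 with βOHB), 47 kept their call in every alternative fit at the same threshold, and 16 lost it when 1 library was left out. An unadjusted p below 0.001, a stricter threshold, was met by 45 of the 70 and by 40 of the 47. In adipocytes the calls of Ifnar2, Ifit1, Ifi44, Gbp2 and Gbp7 were lost without control replicate 1, with log2 fold changes of -0.16, -0.86, -0.54, -0.40 and -0.19. Without butyrate replicate 1 Ifnar2 lost its call (-0.18), Ifit1 went to -2.22 and Gbp7 to -0.79. Without butyrate replicate 2 Ifi44, Gbp2 and Gbp7 lost theirs (-0.55, -0.51 and -0.39), as without butyrate replicate 3 (-0.74, -0.57 and -0.35), and Ifi44 also without control replicate 3 (-0.87). Ifih1 was -0.48 without control replicate 1. Trim25 in macrophages (main value -0.36) lost its call when any of the 6 libraries was left out, between -0.37 and -0.33, and with library totals alone (-0.14, adjusted p = 0.445). In hepatocytes Ifi35 lost it without control replicate 1 (-0.39). Tap1 lost it in 5 of 6 cases (all but control replicate 1; -0.41 to -0.35), and Bst2 without control replicates 1 or 3 or butyrate replicates 2 or 3 (-0.39 to -0.35). In myocytes, without control replicate 1 the values were -0.57 for Irf9, -0.97 for Psmb8, -0.24 for Irf5, -0.34 for Irf8 and -1.77 for Oas1a, none of them called. Without control replicate 2 Ifi35 (0.42), Psmb8 (-1.06), Irf5 (-0.35), Irf8 (-0.62) and Oas1a (-2.04) were not called. Without butyrate replicate 1 the uncalled values were -0.54 for Irf9, -0.85 for Psmb8, -0.38 for Irf5, -0.45 for Irf8 and -1.64 for Oas1a. Leaving out butyrate replicate 2, the library with the most hepatocyte marker RNA, ended the calls of Ifi35 (0.39) and Irf5 (-0.40) and moved Psmb8 to -2.09. Oas1a was not called without butyrate replicate 3 (-2.04), and Irf5 was -0.77 without control replicate 3. Stat2, Tap1, Irf1, Irf2, Irf3, Ifnar2 and Ifit2 kept their myocyte calls when any 1 library was left out.

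No member was called with βOHB in adipocytes, macrophages or hepatocytes by edgeR (background 0.00652%, 0% and 0.00652% of all genes), nor by limma-voom or DESeq2. In adipocytes this result depended on the filter on low counts, as given below. At an unadjusted p below 0.05, edgeR found 12 of 35 members in adipocytes, all of them lower (7.15% of all genes, 3.67% lower), and 0 in macrophages (2.33% of all genes) and hepatocytes (5.51%). The width of the intervals differed between members. For Ifnar1 the 95% confidence interval of the log2 fold change was -0.11 to 0.14 in adipocytes, -0.12 to 0.13 in macrophages and -0.11 to 0.14 in hepatocytes. The intervals were wider for the effectors Ifit1 (-1.43 to 0.09) and Ifit3 (-1.42 to 0.21) in adipocytes. Falls of more than 1 log2 unit in either gene thus lay within its interval.

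The median of the 23 sensing and effector genes in adipocytes showed how far the libraries spread. Relative to the mean of the controls, it was 0.46, -0.25 and -0.17 log2 units in the 3 control libraries, 0.19, -0.46 and -1.47 with βOHB, and -0.0033, -0.92 and -0.80 with butyrate. The first library was the highest for 21 of 23 genes in controls, 22 of 23 with βOHB and 21 of 23 with butyrate, although it was the highest for 42.9%, 32.2% and 33.9% of all genes. The third βOHB library was the lowest of its group for 23 of 23 genes and for 33.8% of all genes. Ifit1, for instance, measured 217, 87.0 and 107 CPM in controls, 134, 89.5 and 34.2 CPM with βOHB and 103, 32.0 and 26.6 CPM with butyrate. Usp18 had 79.3, 41.8 and 43.8 CPM in controls, 48.6, 31.5 and 11.4 CPM with βOHB and 61.1, 29.2 and 33.0 CPM with butyrate. The library medians of the regulators lay between -0.21 and 0.11, and the median of all genes lay between -0.0037 and 0.0036. With no filter on low counts, 17 members were called lower with βOHB in adipocytes, against 0.595% of the 32246 genes then tested (0.385% lower). The labels give no culture, animal or day for these libraries, and the part of such differences was not tested.

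**Figure D4:**
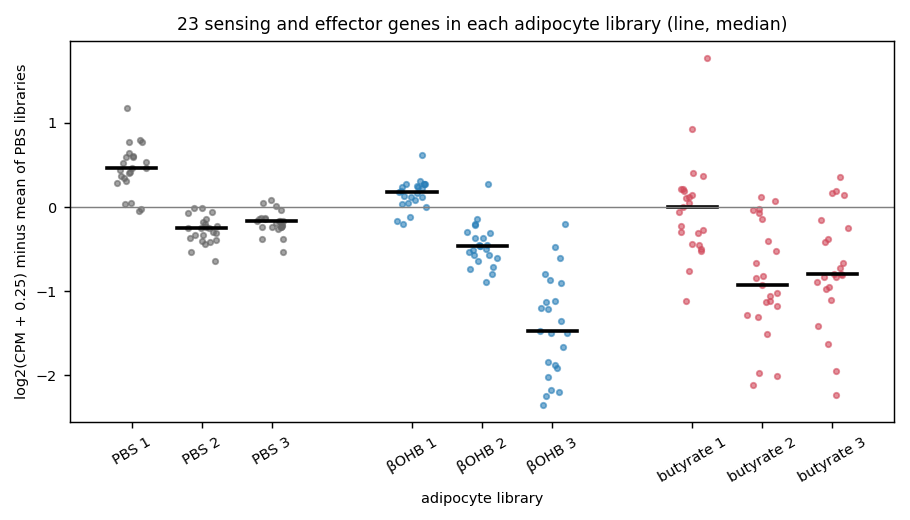
Each point is 1 of the 23 sensing and effector genes in 1 adipocyte library, as log2(CPM + 0.25) minus the mean of the 3 PBS libraries, and black lines are medians. Replicate 1 lies highest in all 3 treatments, and βOHB replicate 3 has the lowest median, at -1.47.

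In myocytes βOHB lowered 3 members and raised 0 (background 2.91% of all genes called, 2.56% lower). DESeq2 called 9 lower (4.01% of all genes, 3.56% lower), and with no filter on low counts 15 were called lower (2.78%, 2.47% lower). Irf8 measured 5.68, 4.31 and 1.89 CPM in controls and 0.596, 0.710 and 2.08 CPM with βOHB (log2 fold change -1.79 ± 0.31, adjusted p = 0.000512). Irf5 measured 5.68, 5.01 and 2.37 CPM in controls against 1.65, 1.29 and 2.79 CPM (log2 fold change -1.18 ± 0.23, adjusted p = 0.00146), and Psmb8 2.66, 2.42 and 0.703 CPM against 0.321, 0.178 and 0.709 CPM (log2 fold change -2.23 ± 0.50, adjusted p = 0.00808). For each gene the third control library lay within the range of the βOHB libraries, so the groups overlapped. All 8 macrophage markers were also called lower in these libraries (median log2 fold change -1.60), and their sums followed the same pattern of libraries: 330, 271 and 129 CPM in controls and 71.3, 53.5 and 126 CPM with βOHB. In bulk RNA, fewer macrophages and less RNA per macrophage cannot be told apart. Macrophage markers in these libraries amounted to 1.75%, 1.44% and 0.683% of their level in macrophages for controls and 0.386%, 0.289% and 0.681% with βOHB. The same shares of the macrophage level of Irf8 come to 2.13, 1.76 and 0.832 CPM in controls and 0.481, 0.361 and 0.849 CPM with βOHB, and those of Irf5 to 2.25, 1.85 and 0.876 CPM and 0.503, 0.378 and 0.889 CPM. The part of macrophage RNA in these changes was not tested. In macrophages themselves βOHB changed neither gene by the test (0.03 ± 0.14 for Irf8 and 0.03 ± 0.11 for Irf5).

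**Figure D5:**
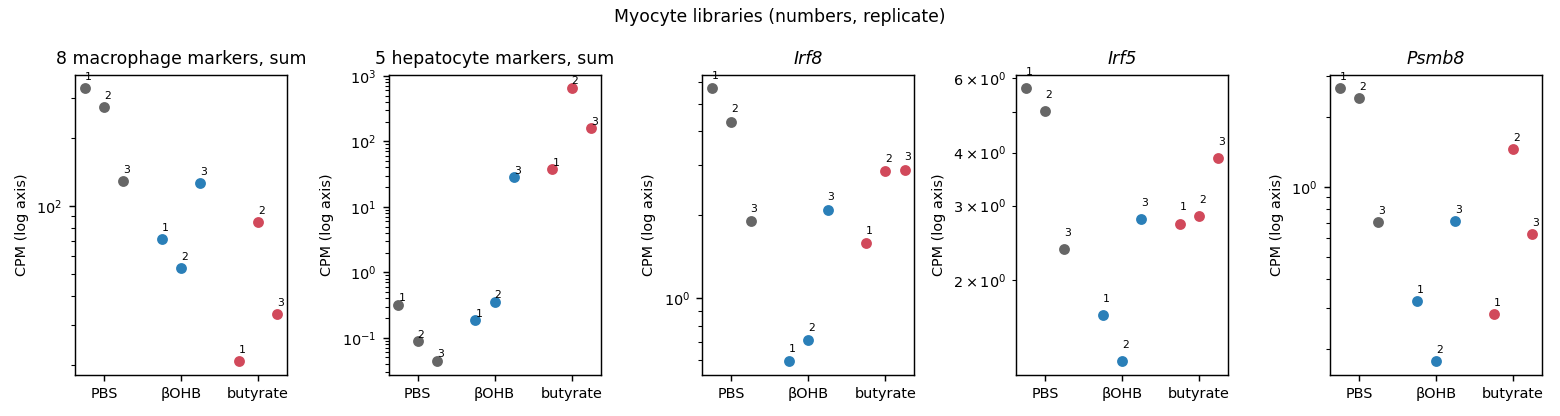
Summed levels of 8 macrophage and 5 hepatocyte markers, and levels of Irf8, Irf5 and Psmb8, in each myocyte library (CPM, log axes; numbers give the replicate). Control replicates 1 and 2 are high for macrophage markers and for all 3 genes, control replicate 3 and βOHB replicate 3 are alike, and the hepatocyte markers reach 649 CPM in butyrate replicate 2.

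The call of Psmb8 with βOHB was lost without control replicate 1 (-1.94), control replicate 2 (-2.03), βOHB replicate 1 (-2.10) or βOHB replicate 2 (-1.88). Limma-voom did not call it either (-2.18, adjusted p = 0.109). All 3 calls were lost when only myocyte libraries entered the fit, with log2 fold changes of -2.27 for Psmb8, -1.22 for Irf5 and -1.83 for Irf8 (background 0% of all genes in that fit). The response to βOHB differed between cell types for 2 of 35 members, Irf5 and Irf8 (background 0.978%), and for 0 when control replicate 1 or 2 or βOHB replicate 1 or 2 of the myocytes was left out. The median log2 fold change with βOHB in myocytes was -0.50 for the 35 members and 0.023 for all genes, with Ifngr1 at -0.25 ± 0.08, Isg15 at -1.14 ± 0.89 and B2m at -0.36 ± 0.13, none of them called.

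Butyrate and βOHB were then compared directly at 5 mM and 6 h in each cell type, 4 comparisons in all. The compounds differed for 21 members in hepatocytes (2 higher with butyrate and 19 lower, background 63.5% of all genes, with 30.5% higher and 33% lower). In adipocytes 13 differed (6 higher and 7 lower, background 59.5%, with 30% higher and 29.5% lower). Macrophages had 19 (12 higher and 7 lower, background 64.7%, with 31.8% higher and 32.8% lower), and myocytes had 17 (13 higher and 4 lower, background 66%, with 33.1% higher and 32.9% lower). The same counts passed when p-values were adjusted over the 4 comparisons together. With library totals alone the split was 7 higher and 5 lower in adipocytes and 16 and 5 in macrophages. In adipocytes, 6 members were called with adipocyte libraries alone (59.9% of all genes), and in macrophages 30 with macrophage libraries alone (69% of all genes). Irf9 differed by -1.46 ± 0.16 (SE, adjusted p = 2.37e-09) in adipocytes and by -2.12 ± 0.16 (SE, adjusted p = 1.4e-12) in hepatocytes. Rsad2 was higher with butyrate than with βOHB in adipocytes, where it measured 395, 114 and 89.0 against 126, 66.3 and 22.4 CPM (log2 fold change 1.47 ± 0.46, adjusted p = 0.00713), although neither compound was called against the controls. The ranges of these Rsad2 groups overlapped, and single calls of this comparison were not followed with libraries left out. The 13 members higher with butyrate in myocytes included Irf8 (1.10 ± 0.33), Irf5 (0.71 ± 0.24), Irf7 (1.96 ± 0.64), B2m (0.40 ± 0.13) and Psmb9 (1.49 ± 0.62). The groups overlapped for Irf8, Irf5 and B2m. Macrophage markers there summed to 71.3, 53.5 and 126 CPM with βOHB and 20.8, 84.8 and 33.3 CPM with butyrate, and their part was not tested. The share of hepatocyte RNA described above comes, in the 3 butyrate libraries, to 1.43, 24.9 and 6.06 CPM for B2m, which measured 117, 128 and 131 CPM with βOHB and 126, 160.2 and 209.9 CPM with butyrate, and to at most 1.01 CPM for Irf7, which measured 0.826, 1.15 and 0.487 and 3.05, 3.63 and 2.95 CPM. Its part was not tested. Members that were not called had 95% confidence intervals that reached from 0.12 to 1.03 log2 units on either side of the estimate in adipocytes. The reach was 0.20 to 3.04 in hepatocytes, 0.17 to 3.25 in macrophages and 0.13 to 3.80 in myocytes. For Ifngr2 in adipocytes the interval of the difference was -0.10 to 0.15, and for Irf8 in macrophages -0.20 to 0.36. Both compounds share the 3 control libraries of a cell type, and the changes against control of the 2 compounds are therefore not independent.

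The other genes of the pathway were 84 by name, of which 74 were tested. Butyrate raised 7 and lowered 37 of the 74 in hepatocytes (all genes 31% higher and 32.4% lower), 6 and 37 in adipocytes (30.7% and 30.3%), 11 and 22 in myocytes (33.1% and 33.4%), and 18 and 17 in macrophages (31.9% and 33.2%). Jak1, the kinase of both receptors, rose in all 4 cell types, by 0.85 ± 0.06 in hepatocytes, 0.83 ± 0.06 in myocytes, 0.75 ± 0.06 in adipocytes and 0.35 ± 0.06 in macrophages. Tyk2, its partner on Ifnar1, rose in adipocytes (0.37 ± 0.07), macrophages (0.34 ± 0.07) and myocytes (0.43 ± 0.07). Jak2, its partner on the gamma receptor, rose in hepatocytes (0.75 ± 0.07) and fell in adipocytes (-0.20 ± 0.07). Mavs, the adaptor of Ddx58 and Ifih1, rose in adipocytes (0.33 ± 0.07), macrophages (0.66 ± 0.07) and myocytes (0.18 ± 0.07). Sting1, the adaptor of DNA sensing, fell in all 4, between -2.47 in hepatocytes and -1.05 in macrophages. The kinase Ikbke was called in hepatocytes only (-2.11 ± 0.14).

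Among further targets, Irgm1, an immunity-related GTPase, fell in all 4 cell types, between -2.28 in hepatocytes and -1.04 in macrophages. Tgtp1, of the same family, fell in adipocytes (-2.27 ± 0.63) and hepatocytes (-3.52 ± 0.28). Nmi fell in adipocytes (-1.42 ± 0.17), macrophages (-2.24 ± 0.23) and hepatocytes (-1.50 ± 0.17). Psmb10, another immunoproteasome subunit, and Erap1, a peptide trimmer, fell in all 4, Psmb10 most in macrophages (-1.96 ± 0.15) and Erap1 most in hepatocytes (-0.92 ± 0.08). Irf4 rose in macrophages from 0.508, 0.554 and 0.562 to 8.03, 6.00 and 5.32 CPM (log2 fold change 3.56 ± 0.24, adjusted p = 2.02e-13), without overlap. Socs3, a feedback inhibitor, rose in macrophages (0.90 ± 0.14), myocytes (1.24 ± 0.15) and hepatocytes (0.44 ± 0.13), and the chemokine Cxcl9 in adipocytes (0.99 ± 0.25), macrophages (2.92 ± 0.86) and hepatocytes (3.19 ± 0.40).

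With βOHB, 7 of the 74 other genes fell, all in myocytes (all genes 2.56% lower and 0.346% higher), and 0 rose: Cd74 (-2.83 ± 0.41), H2-Aa (-2.77 ± 0.45), H2-Ab1 (-2.57 ± 0.46), Nlrc5 (-1.49 ± 0.41), Ptpn6 (-1.40 ± 0.25), Lgals3bp (-1.27 ± 0.24) and H2-D1 (-0.71 ± 0.19). H2-Aa and H2-Ab1 are MHC class II genes of antigen-presenting cells, and Cd74 encodes the invariant chain that goes with their products. Cd74 measured 57.1, 48.0 and 6.68 CPM in the myocyte controls, 4.36, 3.15 and 8.11 CPM with βOHB and 1.14, 3.76 and 1.92 CPM with butyrate, beside the macrophage marker sums given above, and the part of macrophage RNA in these changes was not tested. With myocyte libraries alone none of these 7 was called, as the share of all genes called with βOHB in that fit was 0%.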

How the data were processed

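The authors deposited estimated counts per gene, made with Salmon 1.2.1 on GENCODE M25 transcripts (GRCm38) and summed with tximport. The study's methods state a scaling by transcript length and library size. Reads shared by related genes are split by estimate, which may affect Ifit3 and Ifit3b, Oas1a and Oas1g, Gbp2 and Gbp2b, and Gbp3 and Gbp7. All 36 libraries were used, grouped by the labels. Gene names and positions came from GENCODE M21 (54094 of 54347 rows matched). Counts were rounded and scaled by TMM, and 15340 genes, each above 1 CPM in 6 or more libraries, entered edgeR 4.0.16 in R 4.3.3 (quasi-likelihood F test, 12 group means, Benjamini-Hochberg over all genes tested). Per-library deviations used log2(CPM + 0.25). The members and lists were chosen with earlier results of these data known. Values were given per library for called members with the largest changes (up to 6 in each direction per comparison), all called with βOHB, and up to 3 other pathway genes of smallest p in each direction. Some genes that this rule picks are not reported here. With 3 against 3 libraries, an exact permutation test cannot go below p = 0.1. The scripts were tested on simulated data. Alternatives were DESeq2 1.42.0, limma-voom (limma 3.58.1), other scalings and filters, a replicate block, own libraries alone, an unadjusted p below 0.001, summed paralogs and each library left out. No 2 replicates agreed within counting noise. Promoters were read with Python 3 and pandas. Intervals and floors cover counting error only where stated.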

Additional observations from a re-analysis of the deposited data

Results flagged for a closer look

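The difference between cell types was larger than the replicate spread, by a 3-degree quasi-likelihood F test in edgeR adjusted over all genes, for 22 of 35 members with butyrate (background 74.5% of all genes) and 2 with βOHB (0.978%). The count for βOHB was 0 under the replicate block and without control replicate 1 or 2 or βOHB replicate 1 or 2 of the myocytes. For each, the gap between the cell types with the highest and the lowest log2 fold change against control is given. With butyrate, the gap between macrophages and hepatocytes was 3.30 for Ifit1 (0.58 and -2.72), 2.46 for Rsad2 (2.73 and 0.27), 1.33 for Ifngr1 (0.41 and -0.92), 1.32 for Stat2 (1.06 and -0.25), 1.12 for Ifi35 (0.70 and -0.43), 0.91 for Irf3 (0.05 and -0.86) and 0.66 for Bst2 (0.27 and -0.40). Between macrophages and adipocytes it was 2.39 for Usp18 (1.97 and -0.42) and 1.68 for Ddx58 (0.82 and -0.86). Between macrophages and myocytes it was 2.31 for Ifit2 (1.10 and -1.21) and 1.43 for Psmb8 (0.16 and -1.27). Between myocytes and adipocytes it was 1.89 for Tap1 (0.97 and -0.92), 1.08 for Ifih1 (0.33 and -0.75) and 0.95 for Irf1 (0.84 and -0.11). Between myocytes and hepatocytes it was 1.78 for Irf7 (0.99 and -0.80), 1.46 for Irf9 (-0.71 and -2.16) and 0.46 for Irf2 (-0.35 and -0.81). Between adipocytes and myocytes it was 1.73 for Irf8 (1.04 and -0.69) and 0.29 for Ifnar1 (0.38 and 0.09). Between adipocytes and hepatocytes it was 1.12 for Ifngr2 (0.10 and -1.02). Between myocytes and macrophages it was 0.96 for Irf5 (-0.47 and -1.44) and 0.66 for Trim25 (0.30 and -0.36). With βOHB, the gap between adipocytes and myocytes was 1.88 for Irf8 (0.09 and -1.79) and 1.36 for Irf5 (0.18 and -1.18). No explanation was tested for these differences.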

How the results depend on the processing

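None of 70 calls of single members changed direction under an alternative, whereas the median of the members with butyrate in myocytes went from -0.030 to 0.0024 with RLE scaling and 0.11 with library totals alone, and the split for butyrate against βOHB in adipocytes from 6 higher and 7 lower to 7 and 5 with library totals alone. Of the 70 calls, 47 kept their call in every alternative fit at the same threshold and 23 lost it in at least 1, 16 of them when 1 library was left out. With no filter on low counts, the members called were 17 for βOHB in adipocytes and 15 in myocytes (all genes 0.595% and 2.78%), 26 for butyrate in macrophages and 24 in myocytes (32.3% and 34.2%), 22 and 26 for butyrate against βOHB in adipocytes and myocytes (29.4% and 33.7%), and 16 for βOHB effects that differed between cell types (2.44%). When the fit held 1 cell type alone, they were 29 for butyrate and 30 for butyrate against βOHB in macrophages (all genes 69.2% and 69%), 6 for butyrate against βOHB in adipocytes (59.9%) and 0 for βOHB in myocytes (0%). DESeq2 called 9 members for βOHB and 21 for butyrate in myocytes (all genes 4.01% and 65.6%) and 4 βOHB effects that differed between cell types (2.18%), and limma-voom called 7 for butyrate in myocytes (66.7%) and 1 such βOHB effect (0.567%). At an unadjusted p below 0.001, which 45 of the 70 calls met, butyrate gave 9 in adipocytes, 6 in myocytes and 12 in hepatocytes (all genes 45.6%, 49.9% and 49.3%), butyrate against βOHB gave 5, 6 and 12 in the same types (44.5%, 49% and 49.2%), and 12 butyrate effects differed between cell types (53.4%). The labels do not tie libraries of the same number, and correlations of their deviations from the group means ran from -0.26 to 0.27. In adipocytes these averaged 0.038 to 0.095 between treatments, against -0.049 to -0.019 for unlike numbers, and every library correlated best with its own number between control and butyrate (6 of 6) but not between the other pairs of treatments (3 and 4 of 6). The replicate block gave 0 βOHB effects that differed between cell types (all genes 0.489%), moved no other count by over 1.5 times and ended 1 single call, that of Irf5 with butyrate in myocytes. Leaving out 1 library at a time gave 18 to 19 members called for butyrate in hepatocytes, 13 to 20 in adipocytes, 8 to 14 in myocytes and 16 to 16 in macrophages, 2 to 4 for βOHB in myocytes, and 0 to 3 βOHB and 20 to 25 butyrate effects that differed between cell types. Summing the counts of related genes ended the call of Gbp3 in hepatocytes (-0.41), where those of Gbp7 were added. Fits with 1 cell type alone ended 11 calls, those of Ifit1 (-1.34), Oas1a (-0.77), Ifi44 (-0.77), Gbp2 (-0.64) and Gbp7 (-0.49) with butyrate in adipocytes and of Psmb8, Irf5 and Irf8 in myocytes with butyrate (-1.25, -0.45 and -0.67) and with βOHB (-2.27, -1.22 and -1.83). Library totals alone ended 8, those of Ifnar2 (-0.12), Ifi44 (-0.69) and Gbp7 (-0.41) in adipocytes, Trim25 (-0.14) in macrophages, Irf5 (-0.34) and Irf8 (-0.56) in myocytes and Tap1 (-0.33) and Bst2 (-0.33) in hepatocytes, and RLE scaling ended those of Ifi44 and Gbp7 in adipocytes, Irf5 in myocytes and Tap1 in hepatocytes, all with butyrate. Limma-voom ended 10 calls, those of Ifi44 (-1.58), Oasl2 (-1.93) and Ifit3 (-3.59) with butyrate in hepatocytes, of Irf9 (-0.71), Ifi35 (0.50), Psmb8 (-1.33), Irf5 (-0.39), Irf8 (-0.60) and Oas1a (-2.30) with butyrate in myocytes and of Psmb8 with βOHB there (-2.18). DESeq2 ended those of Ifi44 (-0.76), Gbp2 (-0.63) and Gbp7 (-0.48) with butyrate in adipocytes. Except where an alternative used fewer samples or another set of genes tested, the cause was not tested. Members near the filter, with a few counts per library in myocytes or macrophages, had the widest intervals.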

Other observations

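Libraries of the same group also stood apart outside adipocytes. Of the 23 sensing and effector genes, 19 were highest in the first myocyte control library and 19 in the third hepatocyte control library, which were highest for 32.9% and 29.4% of all genes.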
